A study of Mus musculus with 9 samples.

Results

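The acute-phase and complement group described here comprised 10 mouse genes, found by symbol in a table of 41457 genes, and all 10 had a row. They were Saa1, Saa2, Saa3, Lcn2, Hp and Orm1, which encode secreted acute-phase proteins, C3 and Cfb of the complement system, and Cebpb and Cebpd, which encode the transcription factors C/EBPβ and C/EBPδ. The members were chosen by function, with measured TPM differences of these same libraries already known, among them that Hp differed between iCAF and qPSC co-cultures and that Lcn2 lay near the head of the list for myCAF against qPSC. The differences between groups given below therefore describe these libraries and are no independent evidence. Values are TPM (a transcript's share of all transcripts in a library, corrected for gene length), and 7 of the 10 genes passed the filter for testing, at least 1 TPM in at least 3 libraries.

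RNA was measured in PancOVA cells, a mouse pancreatic tumour line, that had shared fresh matrigel for 48 h with stellate cells of a mouse pancreas line marked by CD90.1. Before that, all stellate cells had been made quiescent over 48 h in matrigel with little serum. In the iCAF group they were then primed to the state that the labels call Tc17-iCAF, after an interleukin-17 producing class of CD8 T cells, for which the protocol gives 48 h of conditioned medium. In the myCAF group the priming was 48 h of recombinant TGF-β1 at 2 ng/ml, and the qPSC group was the quiescent control condition. Each group had 3 libraries, and all 9 shared the tumour line, a proliferation dye by which tumour cells were sorted, and digestion with collagenase and DNase. A single tumour line and a single stellate line stand behind all groups. Nothing in the labels states that replicates were separate cultures, so the spread between them may be technical only.

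Acute-phase proteins are secreted into blood mainly by the liver when interleukin-6, interleukin-1 or related cytokines signal, and many epithelia and fibroblasts make some of them locally. C/EBPβ and C/EBPδ, together with STAT3 and NF-κB, are the classical transcription factors of these genes. C3 is the central protein of complement, and complement factor B supplies the protease of the alternative pathway that cleaves it.

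Promoter sequence was available for 6 of the 10 genes in the RefSeq table used (GRCm38.p6), as windows from 250 bases before to 50 bases after a transcription start. The C/EBP motif TTGCNNAA, searched on both strands, had 1 match in each of 5 windows, those of Lcn2, Saa1, Saa2, Saa3 and C3, and none in that of Cebpb. Over all 32851 windows of the table, 10.8% held this motif. The STAT motif TTCNNNGAA, held by 8.30% of all windows, and the NF-κB consensus, held by 8.46%, had no match in the 6 windows, so no match of one motif overlapped another. The 250 bases before the start are shown for 4 genes, so that the place of the match can be compared between Lcn2, Saa3 and C3, whose levels are described below, and Saa1, which was nearly silent. Capitals mark the C/EBP match, and each sequence is written 5′ to 3′ on the gene's own strand, here the minus strand of the build for all 4.
Lcn2, chr2:32387740-32387989: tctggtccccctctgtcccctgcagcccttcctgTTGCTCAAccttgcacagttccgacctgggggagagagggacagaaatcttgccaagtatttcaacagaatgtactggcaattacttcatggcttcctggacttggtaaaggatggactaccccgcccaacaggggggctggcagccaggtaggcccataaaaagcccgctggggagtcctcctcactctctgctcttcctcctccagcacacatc
Saa3, chr7:46715677-46715926: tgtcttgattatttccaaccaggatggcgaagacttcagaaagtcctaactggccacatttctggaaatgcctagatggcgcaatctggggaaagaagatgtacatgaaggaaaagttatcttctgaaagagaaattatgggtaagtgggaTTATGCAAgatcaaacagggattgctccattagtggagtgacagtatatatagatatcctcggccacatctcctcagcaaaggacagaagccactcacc
C3, chr17:57228137-57228386: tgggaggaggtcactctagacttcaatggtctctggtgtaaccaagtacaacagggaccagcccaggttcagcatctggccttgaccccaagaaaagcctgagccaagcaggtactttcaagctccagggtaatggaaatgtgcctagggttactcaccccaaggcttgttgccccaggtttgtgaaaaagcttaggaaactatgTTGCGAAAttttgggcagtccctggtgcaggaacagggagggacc
Saa1, chr7:46742981-46743230: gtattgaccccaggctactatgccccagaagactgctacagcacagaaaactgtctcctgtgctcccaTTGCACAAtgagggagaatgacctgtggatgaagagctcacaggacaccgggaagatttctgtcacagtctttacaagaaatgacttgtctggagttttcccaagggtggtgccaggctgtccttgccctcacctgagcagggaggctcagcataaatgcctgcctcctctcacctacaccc
The match began 216 bases before the RefSeq start in Lcn2, 99 in Saa3, 45 in C3 and 182 in Saa1. Only that of Saa3 lay on the strand opposite to the gene. These positions hold for the RefSeq start used. The Lcn2 stretch lies wholly, and the Saa3 stretch partly, within the gene span given below from another annotation. The Saa2 window of 250 bases was 94.8% identical to that of Saa1 and held the same 8 bases, while Saa1 and Saa3 were 52.2% identical over an alignment with gaps. These matches are letters in a window and were not tested as sites.

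Depth was similar across libraries, at 38870174 to 45314743 implied reads, and 1 library stood apart. Ribosomal protein genes held 20.2% of the TPM of iCAF replicate 3 and 13.6% to 14.5% in each of the remaining 8. The median over tested genes, as log2(TPM + 1), was 3.96 there and 4.35 to 4.47 elsewhere. The median log2 fold change of all tested genes was -0.15 in iCAF against qPSC, 0.01 in myCAF against qPSC and -0.15 in iCAF against myCAF. Centring each library on its own median moved the first of these to 0.05, and leaving out iCAF replicate 3 moved it to -0.03. The calls among members and the counts over pathway genes are also given without that library.

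Transcripts of fibroblast genes were present in the sorted cells, and their level differed between libraries. The summed TPM of 18 fibroblast genes was 505, 628 and 369 in the iCAF libraries, 1181, 664 and 989 in the myCAF libraries and 631, 694 and 766 in the qPSC libraries, in replicate order. Of the 18, 14 passed the filter, 0 were at 0 in every library, and Col1a2, Lum and Fap stayed under 0.5 TPM throughout. Col1a1, a type I collagen chain, ranged from 28.8 to 72.9 TPM in iCAF, 68.2 to 158 in myCAF and 54.0 to 69.9 in qPSC libraries. Thy1, which encodes the CD90 antigen, ranged from 2.05 to 3.46 TPM in iCAF, 3.28 to 9.04 in myCAF and 2.81 to 5.40 in qPSC libraries. Krt8, a keratin of epithelial cells, lay between 744 and 829.9 TPM in all 9, but the epithelial adhesion genes Epcam and Cdh1 did not exceed 0.0275 and 0.0176 TPM in any library. Such bulk libraries do not show which cells these transcripts came from, stellate cells or the tumour cells themselves. Fewer cells of a type and less RNA per cell cannot be told apart in them either. The part of fibroblast RNA in the results below was not tested.

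Cells that are the textbook source of acute-phase proteins and lipocalin-2 left almost no transcripts. Of 8 hepatocyte genes, 0 passed the filter, Cyp2e1, Serpina1a and Tat were at 0 in all 9 libraries, and the summed level ranged from 0.143 to 0.296 TPM in iCAF, 0.240 to 0.364 in myCAF and 0.189 to 3.04 in qPSC libraries. Of 9 neutrophil genes, 0 passed, S100a9, Elane, Ltf and Retnlg were at 0 in all 9, and the summed level ranged from 0.412 to 1.15 TPM in iCAF, 0.232 to 0.628 in myCAF and 0.0451 to 0.849 in qPSC libraries. Of 8 macrophage genes, Cd68 and Cd14 passed, while Adgre1, Csf1r, Ptprc and Tyrobp stayed under 0.5 TPM in every library. Cd14, an endotoxin co-receptor that is not restricted to macrophages, carried most of that list's sum of 106 to 127 TPM in iCAF, 129.7 to 166 in myCAF and 149.99 to 175 in qPSC libraries.

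Among the serum amyloid A genes, transcripts came almost wholly from Saa3. Saa3, the serum amyloid A gene that mice express outside the liver (chromosome 7, 46711998 to 46715700, GRCm38), lay at 22.9, 25.2 and 35.8 TPM in the iCAF libraries, at 140.3, 37.1 and 52.2 TPM in the myCAF libraries and at 64.1, 76.5 and 104 TPM in the qPSC libraries. The 3 iCAF libraries lay below every other library, while the myCAF libraries spread from below to above the qPSC range. The means were 28.01 ± 6.88 TPM in iCAF, 76.6 ± 55.8 in myCAF and 81.7 ± 20.7 in qPSC libraries (SD, n = 3). The log2 fold change of iCAF against qPSC was -1.51 ± 0.42 (SE) and did not pass (limma, adjusted p = 0.190), nor did that of myCAF against qPSC at -0.30 ± 0.42 (limma, adjusted p = 1.00). The library with the highest Saa3, myCAF replicate 1, also had the highest fibroblast sum of the 9. The next highest sum was that of myCAF replicate 3, whose Saa3 lay below every qPSC library. Within the myCAF and within the qPSC libraries Saa3 rose in the order of that sum. In iCAF libraries the lowest sum went with the highest Saa3, and these orders were not tested. Without myCAF replicate 1, a library outside this comparison, iCAF against qPSC was again -1.51 and passed (limma, adjusted p = 0.0490). Its SE moved from 0.42 to 0.23, since all libraries in a fit share the estimate of the spread. Saa3 in iCAF against qPSC also passed with weights per library, a fit that called 663 genes there where the unweighted fit called 70. The value of myCAF against qPSC without myCAF replicate 1 was -0.85 and did not pass (limma, adjusted p = 0.683).

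Saa1 and Saa2, the acute-phase forms made by mouse liver, were close to the limit of detection. Saa1 was listed at 0 in 6 of 9 libraries and had 4 implied reads in all, and its highest value was 0.0575 TPM, under the 0.0729 to 0.0990 TPM that 3 reads would give. Saa2 had 2 reads over the iCAF libraries, 7 over the myCAF libraries and 10 over the qPSC libraries, with a highest value of 0.164 TPM. Both genes failed the filter, and 31.5% of the 50-base stretches of Saa1 transcripts occur in other genes too, Saa2 and Saa3 foremost, so the few reads cannot be assigned with certainty. Orm1, which encodes the plasma carrier protein orosomucoid, lay at 0.747, 0.573 and 0.777 TPM in iCAF, 0.184, 0.520 and 0.207 TPM in myCAF and 0.398, 0.528 and 0.710 TPM in qPSC libraries, from 24 implied reads in iCAF, 9 in myCAF and 17 in qPSC libraries. The iCAF libraries lay above all myCAF libraries, but with 2 to 10 reads per library this difference was not tested. Of the 50-base stretches of Orm1 transcripts, 20.4% occur in other genes too, Orm2 and Orm3 foremost, so its reads cannot be assigned with certainty. Orm3 averaged 2.19 TPM in iCAF, 1.51 in myCAF and 2.11 in qPSC libraries.

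Lcn2 encodes lipocalin-2, which binds bacterial siderophores (chromosome 2, 32384633 to 32388252), and its levels separated all 3 groups. It lay at 60.0, 78.7 and 60.0 TPM in the iCAF libraries, at 56.5, 56.1 and 49.1 TPM in the myCAF libraries and at 96.0, 102 and 93.4 TPM in the qPSC libraries. No pair of groups overlapped, with myCAF lowest and qPSC highest. The log2 fold change of myCAF against qPSC was -0.84 ± 0.12 (SE), or 1.79-fold lower (limma, adjusted p = 0.0683), that of iCAF against qPSC -0.56 ± 0.12 (limma, adjusted p = 0.0800) and that of iCAF against myCAF 0.28 ± 0.12 (limma, adjusted p = 0.257), so none passed in the unweighted fit. Other fits of all 9 libraries called it in myCAF against qPSC, with weights per library (limma, adjusted p = 0.000992) and with limma-voom (adjusted p = 0.0413). Those fits called 882 and 5 genes over all. The weights also called Lcn2 in iCAF against qPSC (limma, adjusted p = 0.00781), among 663 genes. Without iCAF replicate 3 the value of myCAF against qPSC, which does not contain that library, was again -0.84 and passed (limma, adjusted p = 0.0117). The fibroblast sums beside these levels were 369 to 628 TPM in iCAF, 664 to 1181 in myCAF and 631 to 766 in qPSC libraries.

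Hp encodes haptoglobin, which captures free haemoglobin (chromosome 8, 109575128 to 109579172), and it was called lower in iCAF against qPSC. It lay at 8.25, 10.2 and 9.53 TPM in the iCAF libraries, at 13.9, 9.24 and 9.55 TPM in the myCAF libraries and at 19.1, 27.9 and 21.0 TPM in the qPSC libraries. All 6 libraries with primed stellate cells lay below all 3 with quiescent ones, and iCAF and myCAF overlapped. In iCAF against qPSC it was 2.27-fold lower, a log2 fold change of -1.18 ± 0.18 (SE; limma, adjusted p = 0.0317). In myCAF against qPSC the value was -0.998 ± 0.182 and did not pass (limma, adjusted p = 0.146). Of 19 alternative fits, 10 lost the call in iCAF against qPSC and 4 gained one in myCAF against qPSC. The difference between iCAF and myCAF was -0.19 with a 95% interval from -0.59 to 0.22 (limma, adjusted p = 0.518).

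**Figure D1:**
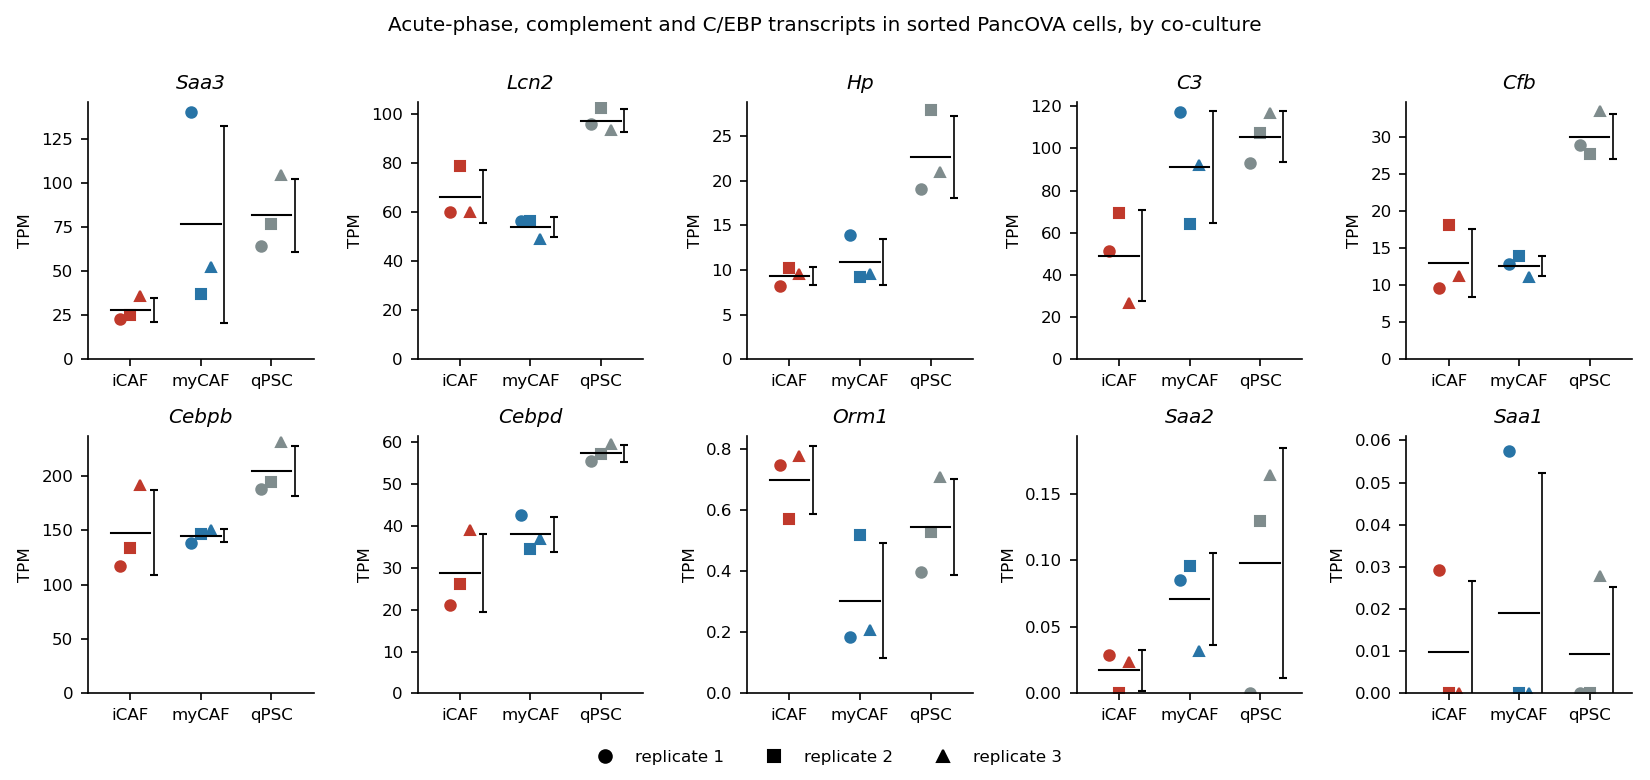
Levels of the 10 genes in TPM (y axis, from 0, scaled per gene) in each library of the iCAF, myCAF and qPSC groups. Symbols are replicates, horizontal lines group means and bars the SD over 3 libraries. Hp, Cfb, Lcn2 and Cebpd show no overlap of iCAF or myCAF with qPSC libraries, while Saa3 reached 140.3 TPM in myCAF replicate 1, and Saa1, Saa2 and Orm1 stayed under 1 TPM.

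Of the complement genes, Cfb was lower than in qPSC libraries by nearly the same size in both primed groups, and was called only for iCAF. Cfb, which encodes factor B (chromosome 17, 34856374 to 34862518), lay at 9.58, 18.1 and 11.2 TPM in the iCAF libraries, at 12.8, 13.9 and 11.1 TPM in the myCAF libraries and at 28.8, 27.7 and 33.5 TPM in the qPSC libraries. Neither primed group overlapped the qPSC libraries, and the iCAF range enclosed the myCAF range. It was 2.29-fold lower in iCAF than in qPSC libraries, a log2 fold change of -1.19 ± 0.20 (SE; limma, adjusted p = 0.0410). In myCAF against qPSC the size was also -1.19 ± 0.20 but did not pass (limma, adjusted p = 0.141). The value of iCAF against myCAF was -0.0048, with a 95% interval from -0.46 to 0.45. Of 19 alternative fits, 11 lost the call in iCAF against qPSC and 5 gained one in myCAF against qPSC. Of the 50-base stretches in Cfb transcripts, 73.0% belong also to Gm20547, a longer gene model on the same strand that did not exceed 0.170 TPM, so the split of reads between both is uncertain.

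C3 (chromosome 17, 57203970 to 57228136) was spread more widely within groups than Cfb. It lay at 51.1, 69.4 and 26.6 TPM in the iCAF libraries, at 117, 64.2 and 92.3 TPM in the myCAF libraries and at 92.9, 107 and 117 TPM in the qPSC libraries. The iCAF libraries lay below all qPSC libraries, whereas the myCAF libraries overlapped both other groups. Within each group C3 rose in the order of the fibroblast sum, which was not tested. The log2 fold change was -1.19 ± 0.32 (SE) in iCAF against qPSC (limma, adjusted p = 0.181), -0.24 ± 0.32 in myCAF against qPSC (limma, adjusted p = 1.00) and -0.94 ± 0.32 in iCAF against myCAF (limma, adjusted p = 0.212), and none passed. Without iCAF replicate 3, which had the lowest C3 and the lowest fibroblast sum of all libraries, the value of iCAF against qPSC was -0.81 and that of iCAF against myCAF -0.56, neither of which passed. The value of iCAF against qPSC passed only without iCAF replicate 2 (limma, adjusted p = 0.0487) or with weights per library. Those fits called 194 and 663 genes over all, where the unweighted fit of all libraries called 70.

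**Figure D2:**
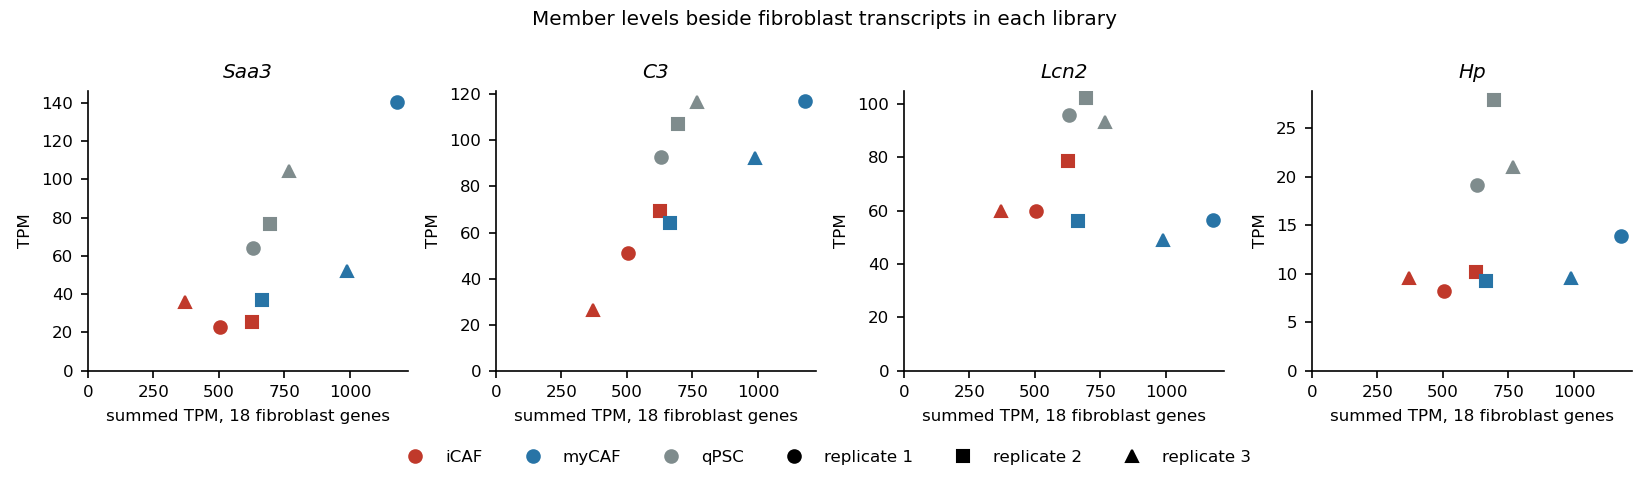
Levels of Saa3, C3, Lcn2 and Hp in TPM (y axes, from 0) against the summed TPM of 18 fibroblast genes (x axes), 1 point per library, coloured by group. For C3 and Saa3 the library with the largest fibroblast sum, myCAF replicate 1 at 1181 TPM, is also the highest. Its C3 was 117.03 TPM, close to 116.7 in qPSC replicate 3 at a sum of 766. The library with the next largest sum, myCAF replicate 3 at 989, lies below every qPSC library for both genes. For C3 this is by 92.34 against 92.86 TPM in qPSC replicate 1. Within each group C3 rises in the order of the sums. Saa3 does so in myCAF and in qPSC but not in iCAF libraries. These orders were not tested. For Lcn2 the myCAF libraries are the lowest at sums from 664 to 1181 TPM.

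The factors C/EBPβ and C/EBPδ had their highest mean RNA in qPSC co-cultures, without a call in the unweighted fit of all 9 libraries. With weights per library both were called lower in iCAF and in myCAF against qPSC. That fit called 663 and 882 genes over all in these comparisons, where the unweighted fit called 70 and 0. It called all 7 tested members in iCAF against qPSC. Cebpd (chromosome 16, 15887286 to 15891031), the form that rises early in inflammation, lay at 21.0, 26.1 and 39.0 TPM in the iCAF libraries, at 42.5, 34.6 and 36.8 TPM in the myCAF libraries and at 55.4, 57.1 and 59.5 TPM in the qPSC libraries. Both primed groups lay below every qPSC library and overlapped each other through iCAF replicate 3. The log2 fold change was -1.02 ± 0.19 (SE) in iCAF against qPSC (limma, adjusted p = 0.0534) and -0.59 ± 0.19 in myCAF against qPSC (limma, adjusted p = 0.448). Without iCAF replicate 3 Cebpd passed in all 3 comparisons, at -1.26, -0.59 and, for iCAF against myCAF, -0.67 (limma, adjusted p = 0.00143, 0.0195 and 0.0354).

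Cebpb (chromosome 2, 167688915 to 167690418), first described as the nuclear factor for interleukin-6, had the highest mean TPM of the 10 genes, although Saa3 exceeded it in myCAF replicate 1. It lay at 117, 134 and 192 TPM in the iCAF libraries, at 138, 146 and 149.7 TPM in the myCAF libraries and at 188, 195 and 231 TPM in the qPSC libraries. The myCAF libraries lay below all qPSC libraries, and iCAF replicate 3 lay within the qPSC range. The log2 fold change was -0.49 ± 0.16 (SE) both in iCAF against qPSC (limma, adjusted p = 0.261) and in myCAF against qPSC (limma, adjusted p = 0.490). Without iCAF replicate 3 both passed, at -0.69 and -0.49 (limma, adjusted p = 0.0105 and 0.0243). On the opposite strand, 312 exonic bases of Cebpb overlap Tmem189 and 562 of Cebpd overlap Spidr, genes with mean levels of 30.7 and 17.1 TPM. The library kit keeps strand, but whether counting used it is not given in the sources used here.

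In iCAF against qPSC, 2 of the 7 tested genes, Hp and Cfb, were called lower, where the background over all genes was 0.598% called lower (70 of 11704) and 0% called higher. At an unadjusted p under 0.05 all 7 were lower, where 13.9% of all genes were lower and 1.95% higher. In 6 of the 7 the iCAF libraries all lay below the qPSC libraries, where 23.2% of all tested genes did so, and in 0 they all lay above, against 4.67%. Members had been chosen with this comparison known, so nothing is read from these counts. Without iCAF replicate 3 the members called were 4, namely Hp, Cfb, Cebpb and Cebpd, where 1.4% of all genes were called lower and 0.111% higher. Without iCAF replicate 2 they were also 4, namely Hp, Lcn2, C3 and Cfb, where 187 of 11671 genes were called lower and 7 higher. Leaving out myCAF replicate 1 left Hp and Saa3 called, where 33 of 11631 genes were called lower. Leaving out iCAF replicate 1, myCAF replicate 3 or any qPSC library left 0 members, with 4, 23 and 0 genes called over all. Median centring, a fit of only the 6 libraries compared and a replicate block also left 0. All 7 fold changes stayed negative under each of the 19 alternatives, and their median was -1.18, beside -0.15 over all tested genes.

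In myCAF against qPSC, 0 of the 7 genes were called by limma, as were 0% of all genes in either direction, while at an unadjusted p under 0.05 the members were 5 lower and 0 higher, where 3.77% of all genes were lower and 2.67% higher. In 5 of the 7, namely Hp, Lcn2, Cfb, Cebpb and Cebpd, the myCAF libraries all lay below the qPSC libraries, against 12.5% of all tested genes, and in 0 they all lay above, against 11.3%. The same 5 were called without iCAF replicate 3, where 1.8% of all genes were called lower and 1.04% higher. They were also called with only the 6 libraries compared, where 378 genes were called over all. Lcn2 and Cfb were called without iCAF replicate 2, for which the share over all genes is not given here. Limma-voom on implied reads called Lcn2, 1 of 5 genes called over all. In iCAF against myCAF 0 of the 7 were called, with 0.0598% of all genes called lower and 0% higher, and 0 by limma-voom. At an unadjusted p under 0.05 Saa3, C3 and Cebpd were lower and Lcn2 higher, where 15.5% of all genes were lower and 2.43% higher. Cebpd was called without iCAF replicate 3, where 0.479% of all genes were called lower and 0.12% higher. Lcn2 was the only one of the 7 with all iCAF libraries above the myCAF libraries and Saa3 the only one with all below, where 4.55% and 18.3% of all tested genes did so. The comparisons share libraries, so their values are not independent of each other.

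**Figure D3:**
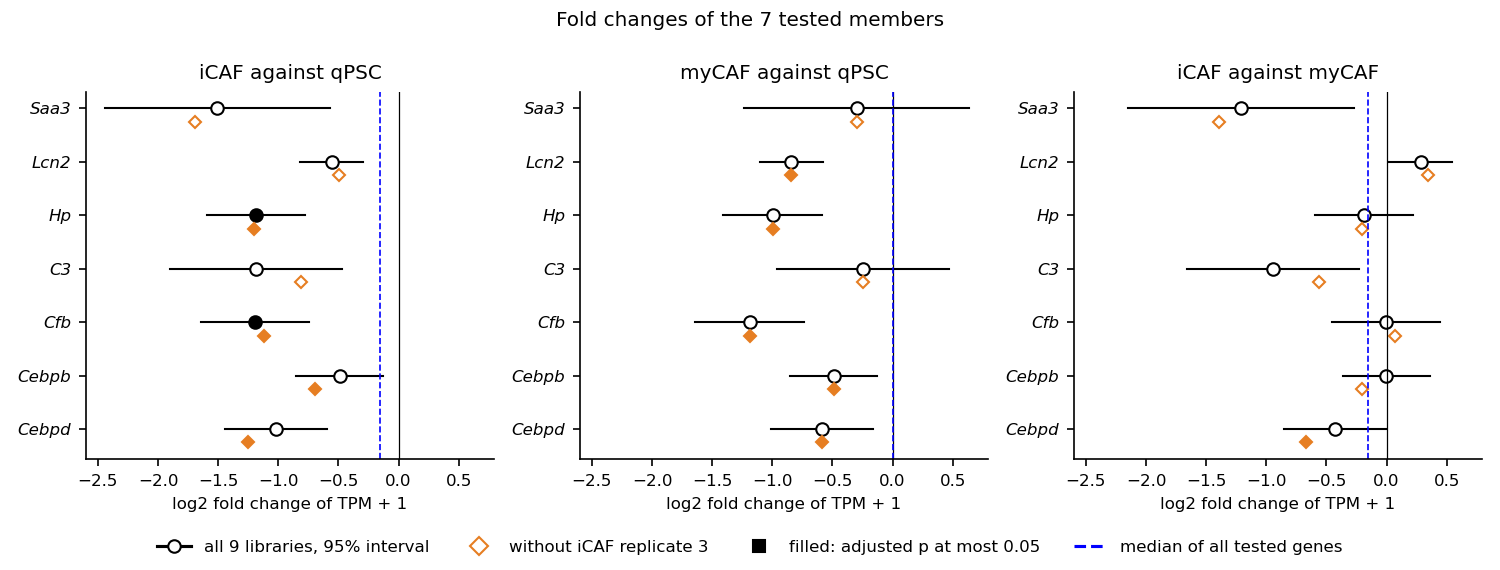
Log2 fold changes of TPM + 1 for the 7 tested genes in the 3 comparisons, as circles with 95% intervals from limma on all 9 libraries and as orange diamonds without iCAF replicate 3. Filled symbols have an adjusted p of at most 0.05, and the dashed line is the median of all tested genes. With all libraries only Hp and Cfb in iCAF against qPSC are filled. Without iCAF replicate 3 the 5 genes Hp, Lcn2, Cfb, Cebpb and Cebpd are filled in myCAF against qPSC, where 1.8% of all genes were called lower.

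By level, averaged over all 9 libraries, the order was Cebpb at 166 TPM, C3 at 81.9, Lcn2 at 72.5, Saa3 at 62.1, Cebpd at 41.3, Cfb at 18.5 and Hp at 14.3, then Orm1 at 0.516. Cebpb exceeded 92.1% of the tested genes and Hp 41.3%. C3, Lcn2, Saa3 and Cebpd had overlapping ranges over the libraries and are not ordered beyond that spread, nor are Cfb and Hp. The order of means also differed between groups, since in iCAF libraries Lcn2 at 66.2 TPM stood above C3 at 49.0, and Cebpd at 28.7 above Saa3 at 28.01.

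Ratios between members within a library do not depend on how that library was scaled. Cebpb over Cebpd was 5.58, 5.14 and 4.91 in the iCAF libraries, 3.25, 4.23 and 4.07 in the myCAF libraries and 3.39, 3.41 and 3.87 in the qPSC libraries, so that the iCAF libraries lay above the rest, iCAF replicate 3 included. Lcn2 over Hp was 7.28, 7.69 and 6.30 in iCAF, 4.07, 6.08 and 5.15 in myCAF and 5.02, 3.67 and 4.44 in qPSC libraries, again highest in iCAF. C3 over Cfb was 5.33, 3.83 and 2.37 in iCAF, 9.13, 4.63 and 8.29 in myCAF and 3.22, 3.86 and 3.49 in qPSC libraries, and here the myCAF libraries lay above the qPSC libraries. These ratios were chosen after the values were seen and were not tested.

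**Figure D4:**
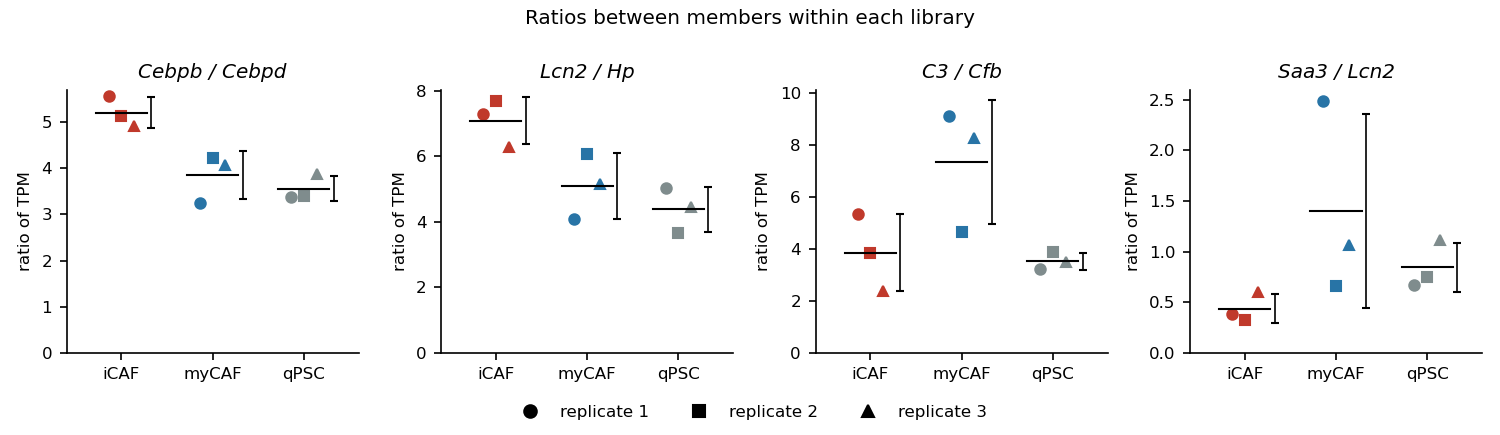
Ratios of TPM between 2 members within each library (y axes, from 0), by group, with symbols for replicates, lines for group means and bars for the SD over 3 libraries. Cebpb over Cebpd lies at 4.91 to 5.58 in iCAF libraries and at or below 4.23 in all others, and Saa3 over Lcn2 reaches 2.48 in myCAF replicate 1.

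Other genes of the same pathways were read from 10 lists holding 129 genes that are not members, of which 54 were tested. In iCAF against qPSC 1 of the 54 was called lower and 0 higher, where 0.598% of all tested genes were called lower. Of the 54, 52 had negative values with a median of -0.38, where 77.4% of all tested genes were negative with a median of -0.15. Leaving out iCAF replicate 3, 49 were negative with a median of -0.20, beside 59.5% and -0.03 over all genes. Then 5 were called lower, where 1.40% of all genes were, namely Nfkbiz, Bcl3, Relb, Il6 and Il11. The gene called in both fits was Nfkbiz, which encodes IκBζ, a nuclear cofactor of NF-κB known in mouse for inducing Lcn2. It lay at 57.3 ± 8.06 TPM in iCAF, 81.0 ± 1.28 in myCAF and 97.9 ± 7.04 in qPSC libraries (SD, n = 3). In myCAF against qPSC 0 of the 54 were called, 35 were negative and the median was -0.06, with 48.0% of all tested genes negative. In iCAF against myCAF 0 were called, 50 were negative and the median was -0.33, where 75.6% of all tested genes were negative. When iCAF replicate 3 was left out, 37 were negative, and Il6 and Il11 were called lower in iCAF against myCAF, where 0.479% of all genes were.

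The cytokines that induce acute-phase genes included Lif and Il11, both of the interleukin-6 family. Lif ranged from 10.6 to 11.4 TPM in iCAF, 17.2 to 33.5 in myCAF and 20.5 to 42.9 in qPSC libraries, and its log2 fold change of -1.49 in iCAF against qPSC did not pass (limma, adjusted p = 0.0610). Il11 averaged 2.53 ± 1.71 TPM in iCAF, 6.95 ± 2.36 in myCAF and 10.2 ± 2.05 in qPSC libraries, with a log2 fold change of -1.77 in iCAF against qPSC that did not pass (limma, adjusted p = 0.0563). Of the 10 cytokine genes 6 were tested and 0 called in any comparison in the unweighted fit of all libraries, with medians of -0.80 in iCAF against qPSC, or -0.92 without iCAF replicate 3, and -0.34 in myCAF against qPSC. The log2 fold change of Il11 in iCAF against qPSC without iCAF replicate 3 was -2.13 and passed (limma, adjusted p = 0.00771). Among the 20 upstream receptors and regulators, all tested, the most abundant were Nfkb2 and Nfkbia, an NF-κB subunit and an inhibitor of NF-κB. Nfkb2 lay at 261 ± 44.5 TPM in iCAF, 308 ± 4.40 in myCAF and 321 ± 16.1 in qPSC libraries, and Nfkbia at 282 ± 44.3 TPM in iCAF, 297 ± 27.1 in myCAF and 297 ± 8.02 in qPSC libraries.

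The rest of the complement system was only partly transcribed. Of 50 complement genes outside the members, 12 were tested and 0 called in any comparison in that fit. In iCAF against qPSC all 12 were negative with a median of -0.31, where 77.4% of all tested genes were negative. With iCAF replicate 3 left out, 11 were negative with a median of -0.16, where 59.5% of all genes were, and 0 were called. In myCAF against qPSC 7 were negative with a median of -0.09, where 48.0% of all tested genes were negative. C1s1, a protease of the classical pathway, ranged from 69.4 to 112 TPM in iCAF, 91.9 to 107 in myCAF and 109.5 to 115 in qPSC libraries, and Masp1, a protease of the lectin pathway, lay at 69.4 ± 18.4 TPM in iCAF, 69.0 ± 5.35 in myCAF and 83.0 ± 1.89 in qPSC libraries. Of 9 genes of the alternative and terminal pathways only Cfp, which encodes properdin, passed the filter, at 0.969 ± 0.372 TPM in iCAF, 1.67 ± 0.632 in myCAF and 1.21 ± 0.170 in qPSC libraries. Of 14 regulators of complement 2 were tested, the more abundant being Cr1l, the mouse gene for the regulator Crry, at 12.5 ± 1.49 TPM in iCAF, 12.7 ± 0.705 in myCAF and 13.2 ± 0.830 in qPSC libraries. Of 9 complement receptor genes only Itgb2, a shared integrin chain, was tested, at 2.11 ± 1.00 TPM in iCAF, 2.38 ± 0.0964 in myCAF and 2.75 ± 0.456 in qPSC libraries.

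Of 28 other acute-phase genes 9 were tested and 0 called, with a median of -0.41 in iCAF against qPSC, or -0.43 without iCAF replicate 3, and 0.02 in myCAF against qPSC. The most abundant was Mt2, a metallothionein gene, at 2756 ± 362 TPM in iCAF, 3329 ± 271 in myCAF and 3651 ± 118 in qPSC libraries, followed by Mt1. None of the 7 genes that fall in the liver during inflammation, such as Alb, passed the filter. Of the other C/EBP genes 3 were tested and 0 called, with Cebpz at 61.3 ± 4.30 TPM in iCAF, 61.7 ± 2.21 in myCAF and 63.0 ± 5.82 in qPSC libraries and Cebpg at 33.2 ± 3.73 TPM in iCAF, 43.6 ± 1.79 in myCAF and 38.3 ± 0.520 in qPSC libraries. Of 9 receptors that bind the secreted products 4 were tested and 0 called, with Lrp1, an endocytic receptor, at 152 ± 59.2 TPM in iCAF, 181 ± 20.9 in myCAF and 195 ± 3.64 in qPSC libraries.

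**Figure D5:**
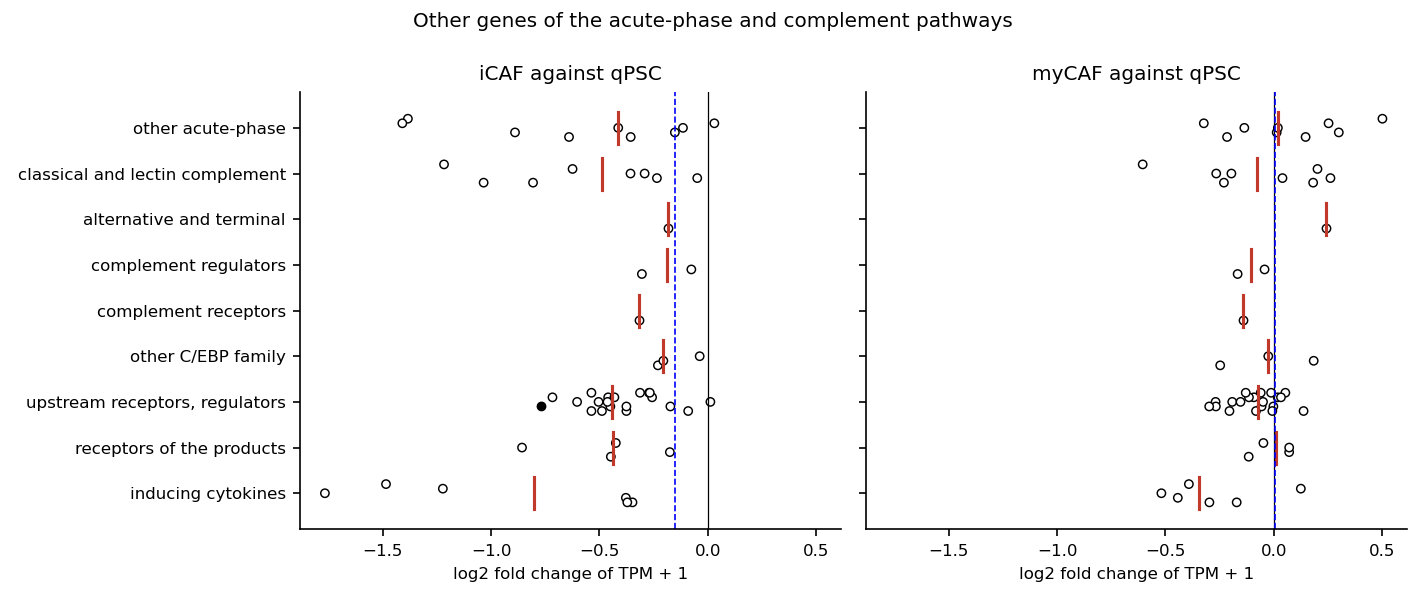
Log2 fold changes of TPM + 1 (x axes) of 54 tested pathway genes outside the 10 members, by list (rows), for iCAF against qPSC and myCAF against qPSC. Red bars are list medians, the dashed line the median of all tested genes, and the filled point, Nfkbiz, is the called gene. The inducing cytokines have medians of -0.80 and -0.34.

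Likeness of pattern was measured as Pearson's r of log2(TPM + 1) over the 9 libraries, which share their group structure, and is given as a description without a p. Among members, Lcn2 and Cfb were most alike at r = 0.93, and Saa3 and C3 had r = 0.73, or 0.94 over the 8 libraries without iCAF replicate 3. Lcn2 and Saa3 had r = 0.27. Outside the members and at a mean of at least 5 TPM, the 5 genes most like Hp were Hexa, Slpi, Gla, Slc25a28 and Fbxo6, with r from 0.91 to 0.95 over 9 libraries. Slpi, a secreted protease inhibitor of epithelia, lay at 182 ± 9.23 TPM in iCAF, 179 ± 32.95 in myCAF and 243 ± 19.8 in qPSC libraries. Those most like Lcn2 were Ms4a4d, Il13ra2, Rbm34, Itm2b and Sqor, with r from 0.94 to 0.98. Il13ra2, a decoy receptor for interleukin-13, lay at 40.7 ± 11.1 TPM in iCAF, 33.9 ± 2.30 in myCAF and 63.6 ± 1.28 in qPSC libraries. Those most like C3 were St3gal1, Jak2, Rfx5, Plekhn1 and Fxr2, with r from 0.98 to 0.99, and from 0.95 to 0.97 without iCAF replicate 3.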

How the data were processed

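The authors deposited 1 table of TPM values per gene symbol and library, which sum to 1000000 in each of the 9 libraries. Tools named in the submitters' processing notes, with no step for each, are DESeq2, Salmon and R 4.0.1. No source used here names the build or annotation behind these values. A strand-keeping mRNA kit and single-end 50-base sequencing were used, per the labels' protocols. TPM of a library move together when a few genes take a larger share.

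The members and gene lists were chosen with earlier results of these data known. The 11704 genes that reached 1 TPM in 3 or more libraries entered limma 3.58.1 (R 4.3.3) as log2(TPM + 1). That fit had group means of all 9 libraries and let the variance follow mean expression. Adjusted p-values are Benjamini-Hochberg values over all tested genes, with a threshold of 0.05, and the fit was tested on simulated data. Fold changes on this scale understate those of low genes. TPM times exon length of GENCODE M21 (GRCm38) came in whole multiples of a constant per library for 97.8% to 98.1% of values under 200 reads, within 0.05 reads, which gave the implied reads. Replicates were compared by chi-square on implied reads, and no pair agreed within sampling noise (at least 8.08 per degree of freedom). From each list and comparison the text names up to 4 called genes, or else the 2 of highest mean TPM. It also names Col1a1, Thy1 and Krt8, and the 5 genes most like Hp, Lcn2 and C3. A gene that this rule names is not reported here. Other names, such as Cd14, Il6, Bcl3 and Relb, were chosen after their values were seen. Promoters came from RefSeq (GRCm38.p6). Python 3.11.15, pandas 2.3.3, Biopython 1.88 and matplotlib 3.10.9 prepared tables and figures. No protein sequences were used here. Alternatives were another pseudocount, other filters, median centring, 6 libraries per fit, a replicate block, limma without the trend, weights per library, each library left out and, added after seeing the data, limma-voom on implied reads, centring without iCAF replicate 3 and the pathway lists without it.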

Additional observations from a re-analysis of the deposited data

How the results depend on the processing

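The number of calls depended on the settings. With 70 genes and 2 members called in iCAF against qPSC, the numbers were 5 and 0 with no filter on low values, 24 and 0 after median centring, 30 and 0 with only the 6 libraries compared, 663 and 7 with weights per library, and 45 and 1 with limma-voom, and from 0 to 194 genes and 0 to 4 members when each library was left out. In myCAF against qPSC, with 0 and 0, they were 1 and 0 with no filter, 378 and 5 with 6 libraries, 882 and 5 with weights, 5 and 1 with limma-voom, 347 and 5 when centred and without iCAF replicate 3, and from 0 to 331 and 0 to 5 when each library was left out. In iCAF against myCAF, with 7 and 0, they were 1 and 0 with a pseudocount of 0.1, 1 and 0 with no filter, 0 and 0 when centred, 0 and 0 with 6 libraries, 1 and 0 without the trend, 519 and 1 with weights, 0 and 0 with limma-voom, 52 and 1 when centred and without iCAF replicate 3, and from 0 to 281 and 0 to 1 when each library was left out. Weights were estimated gene by gene, since limma's default estimate stopped before converging, a change made after its counts had been seen. The default estimate had called far fewer genes in iCAF against qPSC and in iCAF against myCAF, and more in myCAF against qPSC. The cause of these differences was not tested.

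To see whether replicate numbers marked pairs, each gene's group mean was subtracted first, so r here compares what remained and not the levels. Same-numbered libraries then had r from 0.07 to 0.25 in iCAF against qPSC and from -0.35 to -0.27 in iCAF against myCAF. In myCAF against qPSC r ranged from -0.31 to 0.03. With 3 libraries per group such values cannot settle whether the numbers are pairs, and they were not taken as pairs. With the replicate block 22 genes and 0 members were called in iCAF against qPSC, 0 and 0 in myCAF against qPSC and 0 and 0 in iCAF against myCAF.

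Of the members' fold changes, 0 of 133 reversed in iCAF against qPSC, 1 of 133 in myCAF against qPSC and 14 of 133 in iCAF against myCAF. Saa3 in myCAF against qPSC ranged from -0.85 without myCAF replicate 1 to 0.10 without myCAF replicate 2. In iCAF against myCAF, Hp was 0.0155 when centred. Cfb was 0.20 when centred, 0.0811 with limma-voom, 0.13 when centred and without iCAF replicate 3, and from -0.26 to 0.17 when each library was left out. Cebpb was 0.20 when centred, 0.0881 with limma-voom and from -0.21 to 0.15 when each library was left out. Saa1, Saa2 and Orm1 were limited by depth, at 0 to 10 implied reads per library.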
